A study of Mus musculus with 28 samples.

Results

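The HoxC cluster genes are the 9 mouse genes Hoxc4, Hoxc5, Hoxc6, Hoxc8, Hoxc9, Hoxc10, Hoxc11, Hoxc12 and Hoxc13. They were taken by name from the 28244 genes of the count table, and all 9 were present. Hox genes encode homeodomain transcription factors that give cells along the body axis a positional identity. They lie in 4 clusters, HoxA to HoxD, and within a cluster the genes are usually switched on in the order in which they lie. Low-numbered genes mark levels nearer to the head, and high-numbered genes mark levels nearer to the tail. Hoxc6 is typical of forelimb and anterior thoracic levels, Hoxc8 and Hoxc9 of the thoracic spinal cord, Hoxc10 of the lumbar cord, and Hoxc11 to Hoxc13 of still more caudal tissue. Hoxc13 also acts in hair follicles. The forebrain normally expresses none of them.

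Polyadenylated RNA was sequenced in 28 samples of 11 groups, all labelled C57BL/6. The study's methods differ from the labels, as they give wild-type mice a CD1 or mixed CD1 and C3H background and state that transgenic mice were bred with these. A first set, which the study's methods place in Nes-GFP mice (GFP under neural Nestin elements), held tail pNSCs, lung pNSCs, brain NSCs, tail cells and lung cells with n = 2 each. Neural stem cells are abbreviated NSCs, and pNSCs are the NSC-like lines that were grown from sites outside the brain. The lung lines came from adult mice of 4 to 6 weeks and the tail lines from pups of postnatal day 1 to 5, the age also given for the tail cells. The lines were sorted GFP-positive cells grown for 3 weeks in medium with EGF and bFGF, from which single clusters were picked. A second set of Wnt1Cre-mTmG mice, in which cells of neural crest origin turn from Tomato to GFP, held tail pNSCs, dorsal root ganglion (DRG) pNSCs and brain NSCs with n = 3 each. Their pNSC lines came from pups, were plated without a sort, and were Tomato-positive and GFP-negative. DRG neural crest stem cells (NCSCs, n = 3) came from adult wild-type ganglia. The last set, of Sox2-GFP knock-in mice, held postnatal lung pNSCs and brain NSCs with n = 3 each. Lines came from mice of either sex, brain NSCs had been passaged from whole brain, and it is not given which culture or animal each replicate was. The p-values therefore measure only the spread between these samples, which may be technical.

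Total counts ran from 9808246 to 22637031 per sample, with the Wnt1Cre-mTmG brain NSCs and DRG pNSCs the shallowest. A level is given as cpm, the count scaled to a common library total, after TMM scaling over all 28 samples, as mean ± SD, and the floor of detection was set at 3 counts. The markers Olig2 and Ngfr followed the labels. Olig2, a transcription factor of NSCs, lay between 884.0 and 1381.5 cpm in group mean in the 8 groups of NSCs and pNSCs, at 14.9 ± 2.4 cpm in DRG NCSCs, and under 0.1 cpm in tail and lung cells. Not every NSC marker set DRG NCSCs apart. Of the 5 listed, Sox1, Pax6 and Olig2 were lower there than in brain NSCs by the edgeR threshold given below, and Sox2 and Nes were not. Ngfr, the p75 neurotrophin receptor of neural crest cells, was at 1207.5 ± 24.6 cpm in DRG NCSCs and at most 3.54 cpm in any pNSC group. Replicate 3 of the DRG NCSCs differed more from the other two (chi-square per degree of freedom 15.9 and 19.9) than those differed from each other (2.16). Pairs of the other Wnt1Cre-mTmG groups and of the Sox2-GFP groups were at 1.09 to 1.39, and those of the first set at 1.6 to 2.74. The p-values of most groups thus reflect a spread little above counting noise.

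The cluster spans chromosome 15, positions 102921103 to 103036852 on GRCm38, with Hoxc13 at the low end and Hoxc4 at the high end, and all 9 genes on the plus strand. In GENCODE vM21 the gene model of Hoxc5 (102967443 to 103017429) encloses Hoxc6, Hoxc8 and Hoxc9. It shares 166 exonic bases with Hoxc10 on the same strand, 5.37% of the exonic length of Hoxc5 and 8.7% of that of Hoxc10. No exonic base of a member lies opposite an exon of another gene. The members can be told apart by sequence even where they code for the same residues. The 5 stretches below come from the genes that lead the groups described further on. Each is 51 coding bases in the last exon of its gene, plus strand, GRCm38. The capitals mark the codons of the residues WFQNRR in the DNA-contacting helix of the homeodomain, which are spelled differently in the 5 genes.
Hoxc6 (chr15:103010880-103010930): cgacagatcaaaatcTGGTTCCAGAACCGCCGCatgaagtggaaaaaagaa
Hoxc8 (chr15:102992697-102992747): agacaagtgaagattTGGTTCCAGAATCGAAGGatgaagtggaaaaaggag
Hoxc9 (chr15:102984056-102984106): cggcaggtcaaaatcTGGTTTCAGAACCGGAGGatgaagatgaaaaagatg
Hoxc10 (chr15:102970974-102971024): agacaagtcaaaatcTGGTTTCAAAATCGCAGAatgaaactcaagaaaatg
Hoxc13 (chr15:102927336-102927386): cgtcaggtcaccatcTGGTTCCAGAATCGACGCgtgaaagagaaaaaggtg
The homeoboxes of the 9 members, 180 bases each, were between 48.3% and 77.8% identical in pairs. The longest run shared between the coding sequences of any 2 members was 20 bases, and the longest shared with any other Hox gene was 31 bases, between Hoxa9 and each of Hoxc5 and Hoxc9.

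HoxC reads came from 4 of the 11 groups, apart from traces. In tail cells all 9 members were above 3 counts in both samples, and the members summed to 159.8 ± 4.1 cpm (n = 2). In Wnt1Cre-mTmG DRG pNSCs all 9 were above 3 counts in the 3 samples and summed to 96.4 ± 0.829 cpm. In DRG NCSCs 6 members were above it in every sample, with a sum of 23.9 ± 0.691 cpm (n = 3). In Wnt1Cre-mTmG tail pNSCs 5 were, with a sum of 5.21 ± 0.648 cpm (n = 3). In brain NSCs of the 3 sets, tail pNSCs and lung pNSCs of the first set and Sox2-GFP lung pNSCs, 15 samples in all, only 4 of 135 values were above 0, and each of the 4 was 1 count. A count of 0 allowed up to 0.29 cpm in the shallowest of these 15 samples. In lung cells Hoxc4 had 4 and 3 counts, Hoxc5 had 4 and 0, and the other 7 members had none. These are bulk samples, so fewer cells of a type and less RNA per cell cannot be told apart.

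**Figure D1:**
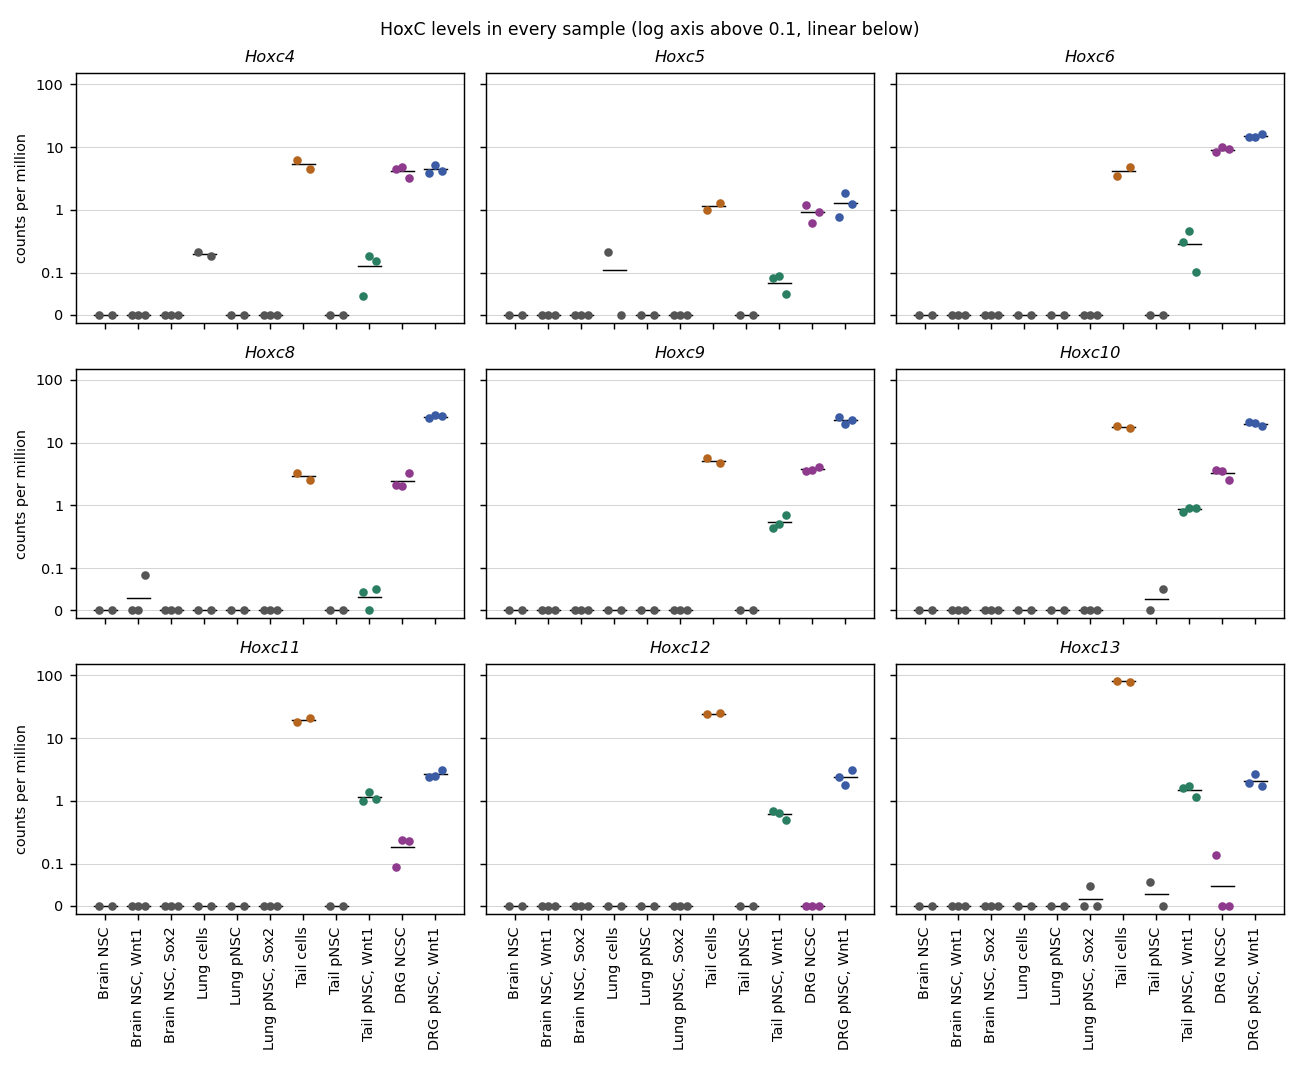
Level of each HoxC gene in every sample (cpm, linear below 0.1 and log above) for the 11 groups, with 1 point per sample and a line at the group mean. Tail cells and DRG pNSCs stand above the 7 groups with at most traces for all 9 genes, Wnt1 tail pNSCs do so for Hoxc9 to Hoxc13, and Hoxc13 in tail cells is the highest value at 79.8 ± 3.87 cpm.

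Hoxc10 to Hoxc13 led in tail cells. Hoxc13, a regulator of hair keratin genes, had 1470 and 1208 counts in the 2 tail-cell samples, or 82.5 and 77.1 cpm. Hoxc12, its cluster neighbour, had 427 and 387 counts, and Hoxc11 had 317 and 322. Hoxc10 had 333 and 265 counts. The thoracic gene Hoxc9 had 101 and 73 counts, Hoxc8 had 58 and 40, and the more anterior Hoxc6, Hoxc5 and Hoxc4 had 61 and 75, 18 and 20, and 112 and 69. Hoxc13 alone held 49.9% ± 1.14 of the HoxC cpm of this group. Per kilobase of exon the level of Hoxc13 was 32.4 ± 1.57 cpm, that of Hoxc12 23.6 ± 0.488 and that of Hoxc11 9.49 ± 0.959, and Hoxc11 and Hoxc10 (9.33 ± 0.664) overlapped. The remaining 5 members were between 0.37 and 2.13 cpm per kilobase, with Hoxc5 the lowest.

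Each member was higher in tail cells than in lung cells, and the samples of the groups did not overlap for any of the 9. The question of this comparison is which genes set apart the tissues from which the lines were grown. By edgeR's quasi-likelihood test with Benjamini-Hochberg adjustment all 9 members were called higher (adjusted p under 0.05 and at least 1 on the log2 scale), against 20.5% of the 16948 genes tested. In this fit every member had passed the filter on low counts through the tail cells, where it is high, so the count of 9 is not evidence beyond the values themselves. Against the floor in lung cells, Hoxc13 was at least 456-fold higher, Hoxc12 at least 139-fold and Hoxc6 at least 23.5-fold. Hoxc4 was 26.6-fold higher, with a counting interval of 12.7 to 67.1 at 95% confidence (exact binomial), and Hoxc5 9.77-fold (3.52 to 37.7). DESeq2 called 8 members and not Hoxc5 (adjusted p = 0.508), whose log2 difference of 3.28 became 2.41 without lung-cell replicate 2 and 7.46 without replicate 1, where the remaining sample had 0 counts. Such intervals and floors cover counting error only.

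Hair genes linked to Hoxc13 were also high in tail cells. Foxn1, a transcription factor needed for hair, was at 69.8 ± 1.05 cpm in tail cells (n = 2), and the hair keratins Krt31, Krt32 and Krt35 were at 626 ± 8.03, 186 ± 1.8 and 782 ± 0.992 cpm. All 4 measured genes of this list were called higher than in lung cells, and all 4 had 0 counts in both samples of tail pNSCs and in all 3 Wnt1Cre-mTmG tail pNSC samples. Markers of other cell types also stood high in tail cells. All 8 fibroblast markers were above the floor there, with a summed level of 72394 to 74297 cpm, and so were 4 of 5 epithelial markers, with 3900.3 to 3997 cpm. Their part in the HoxC level of tail cells was not tested.

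Tail pNSCs of the first set did not carry the HoxC genes of tail cells. The comparison asks how far the lines depart from the tissue they came from. Their 2 samples had 1 HoxC count each, from Hoxc13 in one and Hoxc10 in the other, where tail cells had 2897 and 2459. All 9 members were called lower by edgeR (32.6% of genes were), and 8 by DESeq2, which did not call Hoxc5. Here too the members were tested only because tail cells carried them past the filter, and the count adds nothing to the values. The samples of the groups did not overlap for any member. Hoxc12 was at least 150.5-fold lower (adjusted p = 3.39e-154), Hoxc11 at least 119-fold (1e-121), Hoxc9 at least 31.9-fold (2.4e-34), Hoxc6 at least 25.4-fold (1.71e-27) and Hoxc5 at least 7.07-fold (2.39e-09). For Hoxc13 the ratio was 2979, with a counting interval of 534 to 117692, and for Hoxc10 it was 665 (119 to 26314). The median fitted change of the 9 members was -9.65 on the log2 scale and that of all genes tested was -0.16. The fitted values of genes without counts depend on the prior count and are no bound. The lower level was not particular to HoxC. Of 27 other Hox genes tested, 18 were called lower in tail pNSCs than in tail cells and 5 higher, all 5 in HoxA.

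No HoxC gene was detected above 1 count in these tail pNSCs or in brain NSCs of the same set. None of the 9 members was called by edgeR, 0 had an unadjusted p under 0.05, and DESeq2 called 0 (10.9% of genes were called in either direction). The largest count in these 4 samples was 1, so no call was possible and nothing is read from the share. The other Hox clusters differed from HoxC here. Of the 30 HoxA, HoxB and HoxD genes listed, 27 were tested and 19 were called higher in tail pNSCs than in brain NSCs and 0 lower, with 6 in HoxA, 7 in HoxB and 6 in HoxD. Hoxb13, the HoxB gene of the same paralogue group as Hoxc13, was at 9.35 cpm and had 0 counts in brain NSCs, and Hoxd9 and Hoxb9, paralogues of Hoxc9, were at 20.6 and 25.4 cpm against 0. Of genes above 3 counts in both tail pNSC samples, HoxA had 10 of 11, HoxB 6 of 10, HoxD 5 of 9 and HoxC 0 of 9. The HoxC share of all Hox cpm was 0.0281% in tail pNSCs and 24.7% in tail cells. No test of that difference between clusters was made.

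**Figure D2:**
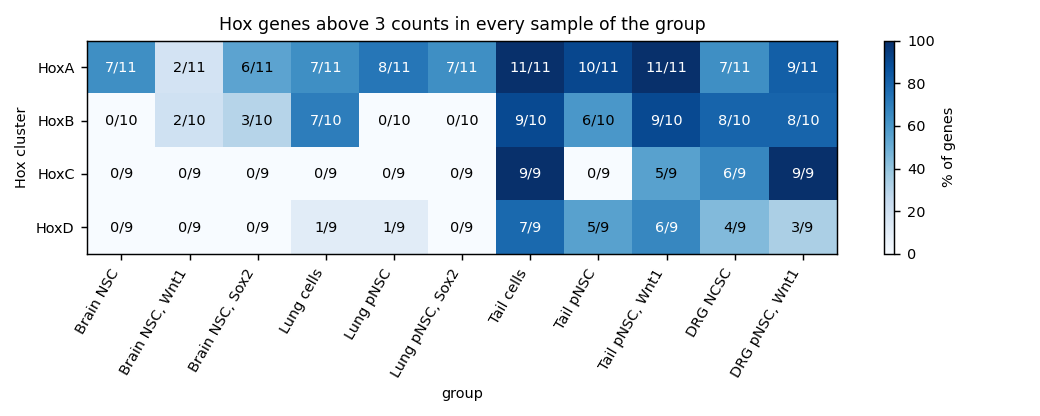
Number of genes of each Hox cluster above 3 counts in every sample of a group, over the number listed, for the 11 groups (colour, percent of the genes). In tail pNSCs HoxA, HoxB and HoxD hold 10, 6 and 5 such genes and HoxC holds 0, while tail cells hold all 9 HoxC genes.

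Lung lines lacked HoxC reads throughout. The 2 lung pNSC samples had 0 counts for all 9 members, and the 3 Sox2-GFP lung pNSC samples had a single count, of Hoxc13. Against brain NSCs of the first set, edgeR called 0 members (0 at an unadjusted p under 0.05, DESeq2 0), with 8.71% of genes called. Against tail pNSCs it called 0 (likewise 0 and 0), with 12.9% called. With at most 1 count per sample and gene no call could be made, so these counts of 0 are not results about the members. Lung pNSCs of the first set and of the Sox2-GFP set gave no call for the same reason (0, 0 and 0, with 9.94% called). In the Sox2-GFP fit, which also held the lung cells of the first set, no member passed the filter on low counts, so none was tested. Lung pNSCs against lung cells gave 2 calls, Hoxc4 and Hoxc5, both lower, where 34.9% of genes were called lower. Hoxc4 was at least 1.31-fold lower (adjusted p = 0.00612), while for Hoxc5 (adjusted p = 0.0483) the samples overlapped at 0 and no fold can be given. The call of Hoxc5 was lost with DESeq2, without either lung pNSC sample and without lung-cell replicate 1, each of which left 1 call. Other Hox genes were present in lung lines, with 8 of 11 HoxA genes above the floor in lung pNSCs and 7 of 11 in Sox2-GFP lung pNSCs, and 0 of 10 HoxB genes in both.

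Wnt1Cre-mTmG tail pNSCs carried low levels of the genes at the Hoxc13 end of the cluster. Hoxc13 had 37, 38 and 23 counts in the 3 samples, Hoxc12 had 16, 14 and 10, and Hoxc11 had 23, 30 and 21. Hoxc10 had 18, 20 and 18 counts and Hoxc9 had 10, 11 and 14. In the matching brain NSCs these 5 genes had 0 counts in all 3 samples, so the groups did not overlap. The 4 genes at the other end were near the floor. Hoxc6 had 7, 10 and 2 counts, Hoxc4 had 1, 4 and 3, Hoxc5 had 2, 2 and 1, and Hoxc8, a thoracic gene, had 1, 0 and 1. The comparison asks what sets these lines apart from brain NSCs of mice of the same cross. EdgeR called 7 members higher, all but Hoxc5 and Hoxc8, where 9.16% of genes were. With only these groups fitted 3 members passed the filter, Hoxc10, Hoxc11 and Hoxc13, and all 3 were called. Hoxc4, Hoxc6, Hoxc9 and Hoxc12 were thus tested only through the DRG groups. Hoxc13 was at least 5.57-fold higher than the floor in brain NSCs (adjusted p = 6.73e-06), Hoxc11 at least 4.24-fold (3.16e-06), Hoxc10 at least 3.22-fold (1.05e-05), Hoxc12 at least 2.27-fold (0.000221), Hoxc9 at least 2.03-fold (0.000207) and Hoxc6 at least 1.07-fold (0.00324). The call of Hoxc4 (adjusted p = 0.0419) rested on 8 counts and was lost without tail pNSC replicate 2 or 3 and without each brain NSC replicate.

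Within this group the mean level per kilobase declined from Hoxc13 to Hoxc9, with a clear drop only at Hoxc9. Per kilobase of exon the levels of Hoxc13 (0.612 ± 0.126 cpm), Hoxc12 (0.597 ± 0.0981) and Hoxc11 (0.568 ± 0.1) overlapped. Hoxc10 came next at 0.456 ± 0.0383. It did not overlap with Hoxc11 but did with Hoxc13, so the means of Hoxc10 to Hoxc13 give no firm order. Hoxc9 was at 0.226 ± 0.0571 and overlapped with Hoxc6 at 0.12 ± 0.0749, and the other 3 were lower. Hoxc9 to Hoxc13 together held 90.2% ± 2.45 of HoxC cpm, beside 91.6% ± 0.211 in tail cells. Within that part the profiles differed. Hoxc11 to Hoxc13 held 62.6% ± 4.1 in these lines and 77.2% ± 1.09 in tail cells, without overlap, and Hoxc13 alone held 28.8% ± 3.77 and 49.9% ± 1.14. All Hox clusters but HoxC stood much higher in these lines, with 103 ± 1.96 cpm for HoxA, 257 ± 5.49 for HoxB and 103 ± 2.1 for HoxD, and HoxC was 1.11% of the Hox cpm. Of the 26 other Hox genes tested, 26 were called higher than in brain NSCs.

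Fibroblast markers, like the HoxC genes, had a higher summed level in the Wnt1Cre-mTmG tail lines than in those of the first set. The summed level of the 8 fibroblast markers was 494 to 500.2 cpm in Wnt1Cre-mTmG tail pNSCs, with 7 of 8 above the floor in every sample, and 38.7 to 39.3 cpm in tail pNSCs of the first set, with 3 of 8. Of 7 tested, 6 were called higher than in the matching brain NSCs. In Wnt1Cre-mTmG tail pNSCs the members had between 1.08% (Hoxc8) and 10.6% (Hoxc9) of their mean tail-cell level. The collagen genes Col1a1, Col1a2 and Col3a1 had 0.284%, 0.247% and 2.19%, and the matrix genes Dcn and Lum had 1.09% and 2.24%. Twist2 had 0.201%, and the mesenchymal genes Pdgfra and Prrx1 had 21.1% and 62.7%. This range is so wide that nothing is read from the HoxC percentages lying within it. Pdgfra and Prrx1 lay above every member, and the other fibroblast markers lay below every member except Hoxc8 and Hoxc13. Hoxc4 (2.36%) and Hoxc12 (2.53%) were only just above Lum. Of the 5 epithelial markers, the epidermal keratins Krt5 and Krt14 and the lung gene Scgb1a1 had 0 counts. Epcam was at 0.143% and Sftpc at 21.1% (0.139 against 0.66 cpm), and no epithelial marker was above the floor in every sample. Hoxc13 was at 1.89% and Hoxc10 at 4.89%. The part of other cell types in the HoxC level of these lines was not tested. These ratios set levels of 2 experiments side by side.

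**Figure D3:**
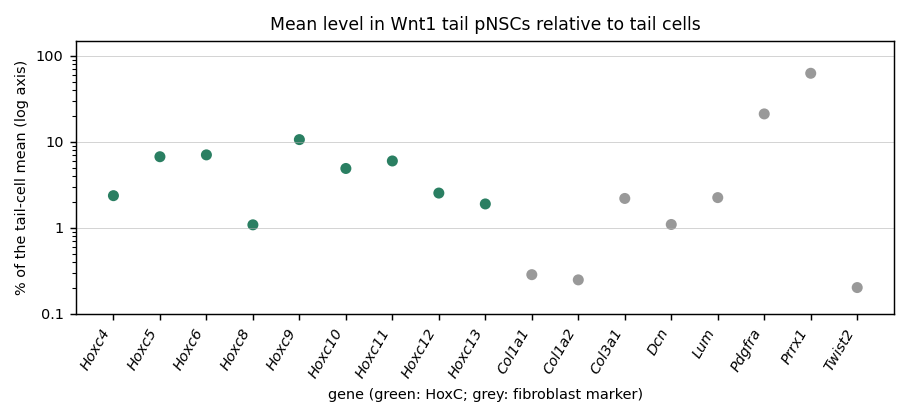
Mean level in Wnt1Cre-mTmG tail pNSCs (n = 3) as a percent of the mean level in tail cells (n = 2), log axis, for the 9 HoxC genes (green) and 8 fibroblast markers (grey). HoxC genes lie between 1.08% and 10.6%, and the markers are spread widely, from Twist2 at 0.201% to Prrx1 at 62.7%.

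The tail lines of both experiments were also compared directly, in 1 fit over all 28 samples. EdgeR called 7 members lower in the first set than in the Wnt1Cre-mTmG set, against 13.7% of genes. They were the same 7 that differed from brain NSCs above, where the same Wnt1Cre-mTmG samples were set against another group with at most 1 HoxC count per sample. With only these groups fitted, Hoxc4 and Hoxc6 were not called. The fit over all samples also holds tail cells and DRG groups, where members are high, so nothing is read from the count against the share. Hoxc11 was at least 7.09-fold lower (adjusted p = 9.8e-08) and Hoxc12 at least 3.81-fold (1.74e-05). The ratio was 56.6 for Hoxc13 (9.92 to 2257) and 32.3 for Hoxc10 (5.57 to 1299.5). Hoxc4 (adjusted p = 0.0377) lost its call without either tail pNSC replicate of the first set and without Wnt1Cre-mTmG replicate 2 or 3. Other Hox genes also differed between these lines. Of 27 tested, 16 were called lower in the first set and 5 higher. HoxB genes were 9 lower and 0 higher, HoxD genes 3 lower and 0 higher, and HoxA genes 4 lower and 5 higher. The experiment, the mouse line and the sort for GFP, made only for the first set, cannot be told apart here.

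DRG pNSCs had the highest HoxC level of any pNSC group, led by thoracic and lumbar genes. Hoxc8 had 289, 277 and 272 counts in the 3 samples (24.5, 27.3 and 26.2 cpm). Hoxc9 had 301, 198 and 237 counts, Hoxc10 had 248, 206 and 194, and Hoxc6 had 170, 146 and 167. The other members were lower but present in each sample. Hoxc4 had 45, 53 and 44 counts, Hoxc5 had 9, 19 and 13, Hoxc11 had 28, 25 and 32, Hoxc12 had 28, 18 and 32, and Hoxc13 had 23, 27 and 18. Per kilobase of exon, Hoxc10 (10.5 ± 0.632 cpm), Hoxc9 (9.3 ± 1.24) and Hoxc8 (9.17 ± 0.498) overlapped, and Hoxc6 followed at 6.21 ± 0.4.

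Against brain NSCs of the same cross all 9 members were called higher in DRG pNSCs, where 3.12% of genes were, and no samples overlapped. The members had passed the filter through the groups where they are high, so nothing is read from that count against the share. Brain NSCs had 0 counts except 1 count of Hoxc8 in replicate 3. Hoxc9 was at least 83.5-fold higher (adjusted p = 5.7e-12), Hoxc10 at least 73.9-fold (4.46e-12) and Hoxc6 at least 55.2-fold (6.12e-11), and the ratio for Hoxc8 was 864 (155 to 34177). The lowest bounds were those of Hoxc13, 7.81-fold, and Hoxc5, 4.79-fold. Both DRG groups and the tail pNSCs were compared with the same 3 brain NSC samples. Fibroblast markers in DRG pNSCs summed to 34.7 to 39.1 cpm, beside 48.2 to 49.7 cpm in brain NSCs, and HoxC was 15.4% of Hox cpm.

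The tail and DRG lines of the Wnt1Cre-mTmG set differed most in the middle of the cluster. EdgeR called 8 members lower in tail pNSCs than in DRG pNSCs, against 7.61% of genes. For Hoxc8 the ratio was 835 (231 to 6908) and for Hoxc4 35.4 (17.5 to 83.5). Hoxc6 fell by 5.62 ± 0.222 (SE) on the log2 scale, Hoxc9 fell by 5.36 ± 0.179 and Hoxc10 fell by 4.51 ± 0.157. The difference was smaller at the tail-level end, where Hoxc12 dropped by 1.94 ± 0.293 (adjusted p = 5.74e-05) and Hoxc11 dropped by 1.19 ± 0.238 (adjusted p = 0.000434). Hoxc13 missed the threshold (log2 difference -0.46 ± 0.291, adjusted p = 0.176) and its samples overlapped, at 1.51 ± 0.31 and 2.11 ± 0.486 cpm. The other clusters did not all move this way. HoxD genes were called 5 higher and 0 lower in tail pNSCs, HoxB genes 2 higher and 0 lower, and HoxA genes 3 higher and 6 lower.

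DRG NCSCs were led by Hoxc6. This gene had 179, 209 and 159 counts in the 3 samples, and Hoxc4 had 95, 101 and 56. Hoxc10 had 79, 74 and 43 counts, Hoxc9 had 75, 77 and 71, Hoxc8 had 46, 43 and 56, and Hoxc5 had 26, 13 and 16. The tail-level end was near or at 0. Hoxc11 had 2, 5 and 4 counts, Hoxc13 had 3, 0 and 0, and Hoxc12 had 0 in all 3. Hoxc6 held 38.2% ± 2.46 of HoxC cpm, and its 3.8 ± 0.333 cpm per kilobase stood clear of Hoxc10 at 1.69 ± 0.327. Hoxc10, Hoxc4 and Hoxc9 overlapped in turn. Against brain NSCs 7 members, Hoxc4 to Hoxc11, were called higher, where 22.1% of genes were, and 5 were tested and called when only these groups were fitted. Hoxc6 was at least 33.8-fold higher (adjusted p = 4.34e-11) and Hoxc4 at least 15.3-fold (5.72e-09). Markers of other cell types moved with them. Of the fibroblast markers 6 of 7 tested were called higher than in brain NSCs, of the leukocyte markers 3 of 3 (summed level 53.9 to 66.7 cpm against 1.7 to 2.53), and of the endothelial markers 2 were higher and 1 was lower (23.0 to 28.3 cpm against 2.59 to 2.79). Their part in the HoxC levels was not tested.

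The 2 cell populations from DRG shared the head-ward end of the cluster and differed at the other end. This comparison asks how pNSCs differ from the neural crest stem cells of the same tissue, though one came from pups and the other from adults. Hoxc4 had a log2 difference of 0.06 ± 0.191 (adjusted p = 0.781) and Hoxc5 of 0.45 ± 0.35 (adjusted p = 0.24), and both overlapped between the groups. Hoxc6 was 0.7 ± 0.125 higher in DRG pNSCs on the log2 scale (adjusted p = 0.000101), under the limit of 1. The 6 members from Hoxc8 to Hoxc13 were called higher, where 15.1% of genes were. Hoxc8 was 3.4 ± 0.145 higher on the log2 scale (adjusted p = 3.11e-13), Hoxc9 2.59 ± 0.13 (3e-11) and Hoxc10 2.6 ± 0.126 (1.95e-11). At the tail-level end Hoxc11 had a ratio of 14.3 (7.61 to 29.7) and Hoxc13 of 42 (13.8 to 208.6), and Hoxc12 was at least 15.9-fold higher. Hoxc11 to Hoxc13 together held 7.42% ± 0.626 of HoxC cpm in DRG pNSCs and 0.979% ± 0.018 in DRG NCSCs. The 6 calls were the same without NCSC replicate 3. Fibroblast markers summed to 2904 to 3537 cpm in DRG NCSCs with 8 of 8 above the floor, leukocyte markers in DRG pNSCs to 2.54 to 2.86 cpm and endothelial markers there to 2.36 to 2.5 cpm, and their part in this difference was not tested.

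**Figure D4:**
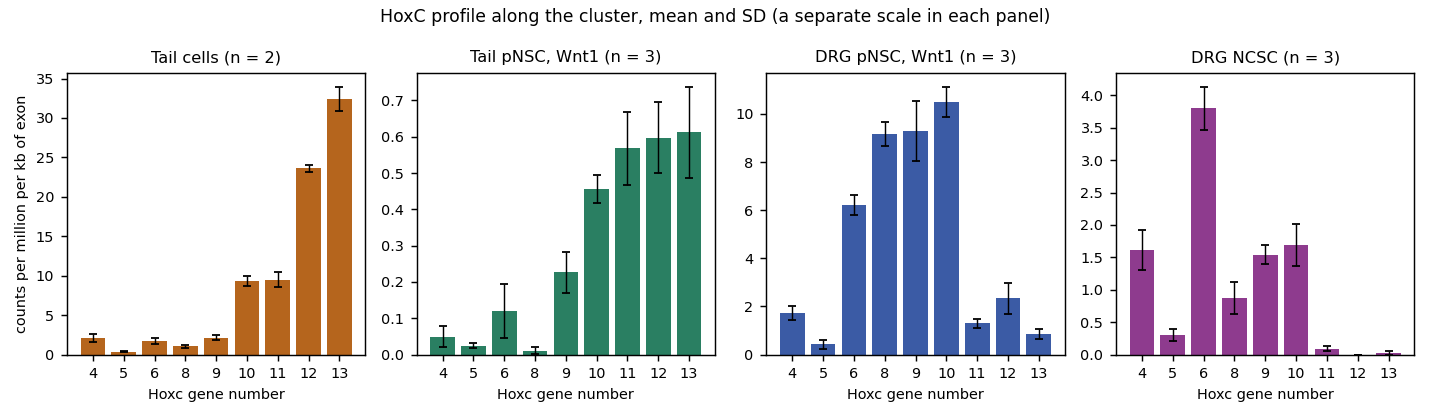
HoxC profile along the cluster in the 4 groups that expressed it, as cpm per kilobase of exon (bars, mean; error bars, SD; each panel has its own scale from 0). The means of tail cells and Wnt1 tail pNSCs rise toward Hoxc13, though Hoxc10 and Hoxc13 overlap in the latter. DRG pNSCs are highest from Hoxc8 to Hoxc10, and DRG NCSCs are led by Hoxc6 at 3.8 ± 0.333.

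Tail pNSCs and DRG NCSCs of the Wnt1Cre-mTmG fit had opposite ends of the cluster. EdgeR called 3 members higher in tail pNSCs, against 15.3% of genes, and 6 lower, against 22.6%, and no member overlapped. The 3 higher were Hoxc11, with a ratio of 6.25 (3.3 to 13.1), Hoxc12, at least 4.05-fold, and Hoxc13, with a ratio of 30.3 (10.1 to 149.7). The 6 lower ran from Hoxc10, which fell by 1.91 ± 0.199 on the log2 scale, to Hoxc8, with a ratio of 78.1 (21.2 to 650.6).

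Across groups, the order of levels differed between the ends of the cluster. Hoxc4 and Hoxc5 had overlapping levels in tail cells, DRG pNSCs and DRG NCSCs, at 5.35 ± 1.33, 4.42 ± 0.723 and 4.15 ± 0.786 cpm for Hoxc4. Hoxc6 fell in steps that did not overlap, from DRG pNSCs (14.9 ± 0.963 cpm) to DRG NCSCs (9.14 ± 0.803), tail cells (4.11 ± 0.961) and Wnt1Cre-mTmG tail pNSCs (0.289 ± 0.18). Hoxc8 and Hoxc9 were also highest in DRG pNSCs, at 26 ± 1.41 and 22.6 ± 3 cpm, and for Hoxc8 tail cells (2.9 ± 0.499) and DRG NCSCs (2.48 ± 0.685) overlapped. Hoxc10 had overlapping levels in DRG pNSCs (20 ± 1.21 cpm) and tail cells (17.8 ± 1.27). Hoxc11, Hoxc12 and Hoxc13 were highest in tail cells, at 19.2 ± 1.94, 24.3 ± 0.503 and 79.8 ± 3.87 cpm, followed by DRG pNSCs, Wnt1Cre-mTmG tail pNSCs and DRG NCSCs, and for Hoxc13 DRG and tail pNSCs overlapped.

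Hotair, a long non-coding RNA gene on the opposite strand between Hoxc12 and Hoxc11 (102944062 to 102947730), followed the tail-level genes. It had 148 and 130 counts in tail cells, 20, 16 and 13 in Wnt1Cre-mTmG tail pNSCs, 14, 13 and 14 in DRG pNSCs, 2, 0 and 0 in DRG NCSCs, and 0 in every other sample. Of 14454 genes with a group mean of at least 5 cpm, Hotair was the gene most like Hoxc11, Hoxc12 and Hoxc13 (Pearson's r of 0.998, 0.995 and 0.994 over the 11 group means of log2 cpm with 1 added). Hoxc8 was most like Hoxc9 (0.983), Hoxc6 most like Hoxc9 (0.965), Hoxc10 most like Hoxc9 (0.96) and Hoxc4 most like Hoxc6 (0.954). The one gene outside the cluster and Hotair among the 3 nearest of any member was Hoxa9, for Hoxc10 (0.921). These values describe 11 points of which at least 7 are at or near 0 for each member. Hoxc5 never reached 5 cpm and was not ranked. The microRNA genes between the members, Mir196a-2 and Mir615, had 2 counts each over all 28 samples, in a library of long polyadenylated RNA.

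The genes that flank the cluster were expressed in every sample. The 3 nearest protein-coding genes on the Hoxc13 side are Calcoco1, Atp5g2 and Atf7, and on the Hoxc4 side Smug1, Cbx5 and Hnrnpa1. The lowest count of any of the 6 in any sample was 233. Between the highest and the lowest group their means differed by 1.35-fold (Smug1, a DNA repair enzyme) to 7.07-fold (Cbx5, the heterochromatin protein HP1 alpha). Both Cbx5 and Hnrnpa1 were highest in tail pNSCs of the first set, at 939 and 753 cpm, and none of the 6 was called between these lines and brain NSCs.

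Most of the listed genes that act on Hox clusters or with Hox proteins were present where HoxC was silent. Of 12 listed regulators 9 were above the floor in every group, among them the Polycomb genes Ezh2, Bmi1, Rnf2 and Cbx2. The remaining 3 had 0 counts in tail and lung pNSCs of the first set. They also had 0 counts in tail cells and DRG pNSCs, where HoxC was high. Tail pNSCs had more than tail cells of Gdf11, a growth factor of trunk-to-tail patterning (59 against 12.3 cpm, log2 difference 2.18 ± 0.0842), Bmi1 (223 against 54.1 cpm, 1.95 ± 0.043) and Ezh2 (195 against 72.8 cpm, 1.34 ± 0.0421), and no listed regulator was called lower. The difference was not particular to tail. Lung pNSCs of the first set also had more Gdf11 (log2 difference 4.13 ± 0.104) and Ezh2 (2.67 ± 0.0532) than lung cells, which held only traces of HoxC. So did Sox2-GFP lung pNSCs against the same lung cells, which are of another experiment (3.51 ± 0.0945 and 2.97 ± 0.0441). Neither tail line nor DRG pNSCs differed from their brain NSCs by a call in any of the 9 tested regulators. All 9 listed cofactors, the Pbx, Meis and Pknox genes, were above the floor in every group, except Pbx4 in tail cells. In DRG NCSCs 4 were called lower than in brain NSCs, led by Meis2 (5.48 against 117 cpm, log2 difference -4.4 ± 0.064) and Meis1 (5.77 against 54.9 cpm, -3.23 ± 0.0831). Wnt1Cre-mTmG tail pNSCs had 1 cofactor called higher than brain NSCs, Meis1 (117 against 54.9 cpm, 1.1 ± 0.0597), and DRG pNSCs had 1, Pbx3 (65.7 against 27.2 cpm, 1.27 ± 0.103).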

How the data were processed

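RNA of 28 samples in 11 groups was compared from raw counts per gene for 28244 genes. Per the labels and the study's methods, the authors aligned single-end polyA reads to GRCm38 with HISAT2, annotated with Cufflinks and deposited HTSeq counts. Strand setting, overlap mode and annotation release are not given in the sources used here, so reads in the 166 bases shared by Hoxc5 and Hoxc10 may be missing or counted for either. No row or column was left out. Coordinates, exonic lengths and sequences are from GENCODE vM21 on GRCm38.

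Groups were compared by edgeR 4.0.16, run under R 4.3.3 (two-sided quasi-likelihood test, filterByExpr with minimum count 10 and total 15, TMM scaling). There was 1 fit per experiment and 1 fit over all 28 samples for comparisons between experiments, with Benjamini-Hochberg adjustment over all genes of the fit. An exception was Sox2-GFP lung pNSCs against lung cells. The Sox2-GFP fit also held the lung cells of the first set, so that comparison crosses experiments and mouse lines. Genes under an adjusted p of 0.05 and at 1 or more on the log2 scale were called. Of 16 comparisons, 14 tested members. Members entered the fits through the groups where they are high, so no count of calls is read as a result against its share of all genes. The first experiment is named by the study's methods, not by the labels. Bounds use 3 counts as the mean cpm of that count over the group's samples. Ratios of summed counts with exact binomial intervals were used where the lower group summed to 12 counts or fewer. DESeq2 1.42.0, other scalings, filters and fits, a replicate block and leave-one-out fits were alternatives. Scripts were tested on simulated data.

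Named were all 9 members, genes between them and the 3 nearest coding genes on each side, the 3 genes most like each member, and up to 4 called genes per list. The members and lists were chosen with earlier results of these data known.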

Additional observations from a re-analysis of the deposited data

How the results depend on the processing

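No result changed direction under any alternative, but sizes did change. Some levels without the TMM factor, or shares under quantile normalization, moved by more than their SD. Spearman's correlation of each ranked member with its 3 most similar genes ran from 0.808 to 1, beside Pearson's r of 0.909 to 0.998. For the 16 counts of called members, 156 values under alternatives stayed within 1.5 times the main count, 13 were lower and 2 higher. The values that stayed include comparisons of groups with at most 1 count per sample and gene. No call was possible there under any setting, so those values carry no weight. With a stricter filter (mean count of at least 100) fewer members were tested and 1 was called in tail pNSCs against tail cells, 1 in tail cells against lung cells, 1 in tail pNSCs of the first set against those of the Wnt1Cre-mTmG set and 0 in lung pNSCs against lung cells, and no member was left in the Wnt1Cre-mTmG fit. Lung pNSCs against lung cells had 1 call with DESeq2, upper-quartile scaling, no filter, the fit over all 28 samples and the replicate block, and 1 to 2 when a replicate was left out. With only the compared groups fitted, 3 members (Hoxc10, Hoxc11 and Hoxc13) were tested and called in Wnt1Cre-mTmG tail pNSCs against brain NSCs. Sox2-GFP lung pNSCs against lung cells had 2 calls, Hoxc4 and Hoxc5, both with no filter and with the fit over all 28 samples. Same-numbered samples of different groups did not deviate together (r of -0.016 to 0.052), so the numbers were not taken to pair samples. The replicate block changed no other count of calls. Depth limits the members near 3 counts, Hoxc4, Hoxc5, Hoxc6 and Hoxc8 in Wnt1Cre-mTmG tail pNSCs and Hoxc4 and Hoxc5 in lung cells.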
